A study of Homo sapiens with 12 samples.

Results

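The genes described here lie between CTDSP2 and PAWR on the long arm of chromosome 12, in bands 12q14 to 12q21, and were followed in the mast cell line HMC-1. They are 58 of the 58381 genes in the count table, matched by symbol. They were chosen by their measured shift in the HMC-1.3 clones against HMC-1.2 together with their position, so their differences from HMC-1.2 are given as a description with no test. HMC-1 is a human mast cell leukemia line. HMC-1.1 carries V560G-KIT, HMC-1.2 carries V560G- and D816V-KIT, and HMC-1.3 clone 1 and clone 2 carry D816V-KIT alone. Both clones were made from HMC-1.2 by CRISPR/Cas9 repair of the V560G codon, puromycin selection and limiting dilution, so each stands for 1 edited cell and its progeny. All 4 sublines were grown in the same serum-containing medium, and poly(A) RNA was sequenced from 3 wells of each. P-values therefore measure the spread between these wells. The KIT genotypes cannot be checked from gene counts, and DNA copy number was not measured.

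Many neighbouring genes that move together by a small, similar amount can differ in the number of DNA copies that a cell carries, because most genes are transcribed in rough proportion to their copies. Expression can also be set for each gene on its own, by transcription factors, chromatin and RNA stability, and a gene can then depart from its neighbours. Bands 12q14 and 12q15 hold CDK4, MDM2, HMGA2, FRS2 and YEATS4, which are known to be amplified together in liposarcoma. For scale, a ratio of 4 to 3 is 0.415 on the log2 scale, a ratio of 3 to 2 is 0.585, and a ratio of 2 to 1 is 1.

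The members spanned 21.9 Mb of chromosome 12, from position 57819927 to 79690964 (GRCh38), an interval with 82 protein-coding genes in Gencode 44. Of the members, 36 lie on the plus strand and 22 on the minus strand. A RefSeq promoter (GRCh38.p14) was found for 46 of the 58. The 250 bases before the start of 6 members are printed below because their RNA shows the main patterns: RAP1B and NAP1L1 shifted by about the median, CPSF6 departed from its neighbours, PAWR moved most among the well expressed members, and ZFC3H1 and THAP2 share a start region, and THAP2 but not ZFC3H1 was called different between the clones. Capitals mark the GC box GGGCGG and the TATA box TATAAA on either strand, and each sequence runs 5′ to 3′ along its gene. The windows are chr12:68610649-68610898 (plus strand), chr12:76084686-76084935 (minus strand), chr12:69239319-69239568 (plus strand), chr12:79690965-79691214 (minus strand), chr12:71663849-71664098 (minus strand) and chr12:71664051-71664300 (plus strand).
RAP1B: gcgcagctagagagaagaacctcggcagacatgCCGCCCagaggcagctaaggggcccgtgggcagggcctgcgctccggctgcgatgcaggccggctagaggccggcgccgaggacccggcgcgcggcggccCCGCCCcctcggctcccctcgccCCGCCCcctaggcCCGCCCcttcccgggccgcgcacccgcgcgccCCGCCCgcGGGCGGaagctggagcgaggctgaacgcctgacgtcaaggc
NAP1L1: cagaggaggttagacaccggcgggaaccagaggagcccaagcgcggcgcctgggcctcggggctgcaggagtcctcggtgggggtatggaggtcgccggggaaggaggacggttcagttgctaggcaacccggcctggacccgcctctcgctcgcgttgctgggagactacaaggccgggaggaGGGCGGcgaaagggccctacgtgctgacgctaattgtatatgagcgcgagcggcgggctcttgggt
CPSF6: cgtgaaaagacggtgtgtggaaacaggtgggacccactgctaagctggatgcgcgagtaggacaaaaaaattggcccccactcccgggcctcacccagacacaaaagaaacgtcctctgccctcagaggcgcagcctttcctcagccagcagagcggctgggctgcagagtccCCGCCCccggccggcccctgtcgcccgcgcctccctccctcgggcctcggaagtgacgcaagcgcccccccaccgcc
PAWR: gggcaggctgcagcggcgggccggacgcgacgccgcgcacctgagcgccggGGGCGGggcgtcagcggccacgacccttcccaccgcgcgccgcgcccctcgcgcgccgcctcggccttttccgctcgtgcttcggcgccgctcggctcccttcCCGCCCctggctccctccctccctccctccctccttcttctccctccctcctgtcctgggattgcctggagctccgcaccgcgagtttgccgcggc
ZFC3H1: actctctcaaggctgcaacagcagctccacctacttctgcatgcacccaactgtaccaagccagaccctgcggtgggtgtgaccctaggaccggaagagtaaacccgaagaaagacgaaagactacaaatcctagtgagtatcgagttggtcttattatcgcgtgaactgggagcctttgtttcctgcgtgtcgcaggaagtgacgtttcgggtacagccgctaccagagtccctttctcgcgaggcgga
THAP2: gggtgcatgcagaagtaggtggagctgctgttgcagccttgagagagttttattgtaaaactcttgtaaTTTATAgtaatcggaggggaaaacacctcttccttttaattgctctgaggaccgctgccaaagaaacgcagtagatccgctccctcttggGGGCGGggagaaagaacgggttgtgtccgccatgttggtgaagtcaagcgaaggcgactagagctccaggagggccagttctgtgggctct

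A GC box was present in 33 of 46 member promoters (71.7%), against 42.6% of the 35116 promoters in the RefSeq set. A TATA box was found in 1 of 46 (2.2%), that of THAP2, against 10.7% of all promoters. The ETS core CCGGAA on either strand was found in 32.6% against 14.5%, and the CCAAT box on either strand in 28.3% against 32%. The median CpG count was 20 against 11, and the median GC content 65.4% against 58.0%. The members are all protein-coding, while no step limited the RefSeq set to protein-coding or expressed genes. These contrasts therefore cannot be read as a trait of the interval. Among tested members with a promoter, the 30 with a GC box had median log2 differences from HMC-1.2 of 0.53 in clone 1 and 0.58 in clone 2. The 10 without one had 0.40 and 0.50.

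After the filter on low counts, 47 of the 58 members could be tested. A member that passed only through sublines where it was high had to differ. PTPRB did so, through clone 2 and HMC-1.2, with 0 to 6 counts per library in clone 1 and HMC-1.1. The counts below concern the 47 alone and include PTPRB. Library totals ran from 29225900 to 43181402 counts. Of 9 mast cell markers, 7 were at 1 FPKM or more in each of the 12 libraries. Their summed level was 2257 to 2292 FPKM in HMC-1.2 and 1550 to 1661 FPKM in the other sublines. Most of that gap was the tryptase gene TPSAB1, at a mean of 592 FPKM in HMC-1.2 and 29.4 to 44.2 FPKM elsewhere, while KIT, CPA3 and GATA2 were lower in HMC-1.2. The part of these markers in the differences below was not tested. In bulk RNA, fewer cells with a transcript and less of it per cell cannot be told apart. KIT RNA was 346 to 363 FPKM in HMC-1.2 and 400 to 469 FPKM in the edited clones. Replicate 3 of clone 2 held 6.69 FPKM of KRT8 and 7.85 FPKM of KRT18, epithelial keratins that were at most 0.83 FPKM in the other 11 libraries. Their part in the results for clone 2 was not tested, and counts without that library are given below.

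Most of the tested members were lower in HMC-1.2 than in the other 3 sublines. The median log2 difference from HMC-1.2 was 0.49 for clone 1 (interquartile range 0.26 to 0.72), 0.57 for clone 2 (0.43 to 0.72) and 0.55 for HMC-1.1 (0.32 to 0.68), or 1.41-, 1.48- and 1.47-fold. The corresponding medians over all 15944 tested genes were 0.01, 0.00 and 0.01. All 3 were made against one set of HMC-1.2 libraries, so their likeness is not independent evidence. Of 47 members, 42 were above 0 for clone 1, 45 for clone 2 and 43 for HMC-1.1, against 51.3%, 50% and 51.0% of all tested genes. All libraries of a subline lay above all HMC-1.2 libraries for 39 members with clone 1 (background 32.8% of all tested genes), 41 with clone 2 (28.3%) and 39 with HMC-1.1 (30.0%). For 35 members (74.5%) all 9 other libraries lay above the 3 HMC-1.2 libraries, against 17.5% of all tested genes. Since this contrast chose the members, the counts describe the choice.

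The median shift of the members was set by no single library. Against the mean of HMC-1.2 it was 0.54, 0.53 and 0.54 in the HMC-1.1 libraries, 0.52, 0.44 and 0.52 in clone 1, and 0.59, 0.56 and 0.60 in clone 2. The HMC-1.2 libraries themselves lay between -0.01 and 0.01. The level of a gene and its shift were nearly unrelated across the 47 members, which share all libraries: Spearman's rho was -0.01 for clone 1, -0.17 for clone 2 and -0.01 for HMC-1.1.

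**Figure D1:**
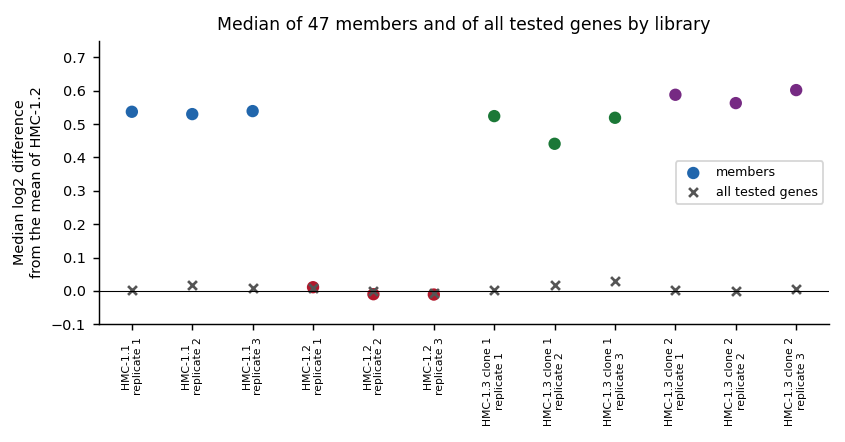
Median log2 difference from the mean of the 3 HMC-1.2 libraries (vertical axis) in each library (horizontal axis), for the 47 tested members (coloured points) and for all tested genes (crosses). The 9 libraries of the other sublines lie between 0.44 and 0.60, and the HMC-1.2 libraries lie near 0, as do the crosses.

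Of the most expressed member of each role, 4 showed like differences from HMC-1.2 in the 3 other sublines. RAP1B, a RAS-related GTPase that activates integrins, was at 293, 279 and 281 FPKM in HMC-1.2. It was at 431, 439 and 437 FPKM in HMC-1.1, 448, 419 and 440 FPKM in clone 1 and 457, 432 and 449 FPKM in clone 2. Its log2 differences from HMC-1.2 were 0.53 ± 0.03 (SE, as in all values written this way), 0.61 ± 0.03 and 0.55 ± 0.03 for clone 1, clone 2 and HMC-1.1, in the order used from here on, so the HMC-1.2 libraries stood apart from the other 9. NAP1L1, a histone chaperone for H2A and H2B, was at 419, 426 and 416 FPKM in HMC-1.2 and at 561 to 639 FPKM in the other 9 libraries, with differences of 0.54 ± 0.03, 0.44 ± 0.03 and 0.51 ± 0.03. CTDSP2, a small phosphatase of the RNA polymerase II tail and the first gene of the interval, was at 56.4, 58.1 and 56.8 FPKM in HMC-1.2 and at 78.7 to 93.3 FPKM elsewhere. OSBPL8, which moves lipids between the endoplasmic reticulum and the plasma membrane, was at 29.4, 27.6 and 30.1 FPKM in HMC-1.2 and at 44.5 to 52.1 FPKM elsewhere. For each of these 4 genes the HMC-1.2 libraries did not overlap the others. RAP1B and NAP1L1 each have 3 named pseudogenes, and 7 members have at least 1, so that some of their counts may be divided among copies.

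Of 7 small GTPases and their regulators, the 6 tested were above 0 in all 3 comparisons, with medians of 0.72, 0.69 and 0.59. RASSF3, a RAS association domain protein, showed 0.82 ± 0.04, 0.77 ± 0.04 and 0.76 ± 0.04. RAB3IP, an exchange factor for RAB8, showed 1.00 ± 0.05, 0.84 ± 0.05 and 0.91 ± 0.05. RAB21, an endosomal GTPase, showed 0.62 ± 0.04, 0.57 ± 0.04 and 0.56 ± 0.04. TBC1D30, a GTPase activating protein, had at most 14 counts in a library and was not tested.

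Kinases, phosphatases and signalling adaptors had medians of 0.46, 0.53 and 0.51 over 8 members, all tested. IRAK3, which restrains Toll-like receptor signalling, was at 5.05, 5.21 and 5.31 FPKM in HMC-1.2, at 10.5, 11.1 and 10.3 FPKM in HMC-1.1, at 10.1, 9.64 and 11.4 FPKM in clone 1 and at 10.4, 10.8 and 11.4 FPKM in clone 2. Its differences of 0.98 ± 0.05, 1.09 ± 0.05 and 1.05 ± 0.05 lay close to a ratio of 2 to 1, above the median of the members. TBK1, a kinase of the interferon response, showed 0.41 ± 0.04, 0.48 ± 0.04 and 0.42 ± 0.04. FRS2, the adaptor of fibroblast growth factor receptors, showed 0.56 ± 0.07, 0.60 ± 0.07 and 0.68 ± 0.07. The receptor phosphatase PTPRB lay far below 0 in clone 1 and HMC-1.1, but at 0.57 ± 0.34 in clone 2. PTPRR had 0 to 24 counts per library, and its differences of -0.55 ± 0.71, 0.18 ± 0.66 and -0.76 ± 0.73 were no larger than about 1 SE.

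Genes of RNA processing, export and ribosome assembly had lower medians of 0.38, 0.46 and 0.43 over 7 members. XPOT, the export receptor for tRNA, was at 68.2, 70.8 and 68.2 FPKM in HMC-1.2 and had the largest difference of this group in clone 1, 0.94 ± 0.03. CNOT2, a subunit of the deadenylase complex that shortens mRNA tails, showed 0.48 ± 0.04, 0.48 ± 0.04 and 0.51 ± 0.04. NUP107, a nuclear pore scaffold protein, showed 0.34 ± 0.03, 0.51 ± 0.03 and 0.43 ± 0.03. The 4 ubiquitin and protein folding members had medians of 0.27 for clone 1, 0.63 for clone 2 and 0.39 for HMC-1.1. They are USP15, a deubiquitinase, CAND1, an exchange factor of cullin ligases, CCT2, a subunit of the chaperonin that folds actin and tubulin, and BBS10, a chaperonin-like protein of Bardet-Biedl syndrome.

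Transport, lipid and membrane traffic genes had medians of 0.63, 0.65 and 0.67 over 6 tested of 9 members. KCNMB4, a regulatory subunit of the BK potassium channel, was lowest in HMC-1.2, with 17, 11 and 14 counts, and had 53 to 78 counts in the other libraries. Chromatin, replication and transcription genes had medians of 0.25, 0.44 and 0.41 over 9 members. YEATS4, an acetyl-lysine reader of histone acetyltransferase complexes, showed 0.84 ± 0.04, 0.60 ± 0.04 and 0.73 ± 0.04, whereas MDM1, a centriole protein, showed only 0.18 ± 0.05, 0.15 ± 0.05 and 0.10 ± 0.05. Of the receptors and surface or secreted proteins, 4 of 8 were tested. LRIG3, a transmembrane protein that modulates growth factor receptors, was at 2.06 to 2.21 FPKM in HMC-1.2, 2.35 to 2.5 FPKM in HMC-1.1, 2.5 to 2.62 FPKM in clone 1 and 2.02 to 2.75 FPKM in clone 2, and only clone 2 overlapped HMC-1.2. CPM, a membrane carboxypeptidase, was at 0.31 to 0.95 FPKM across all libraries.

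The remaining 11 tested members were TBC1D15, LLPH, KRR1, DYRK2, PPM1H, MON2, SLC35E3, TMEM19, ZDHHC17, HELB and LEMD3. All were above 0 in the 3 comparisons, from 0.20 for PPM1H, a phosphatase, to 0.83 for SLC35E3, a nucleotide sugar transporter relative, both in clone 2.

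**Figure D2:**
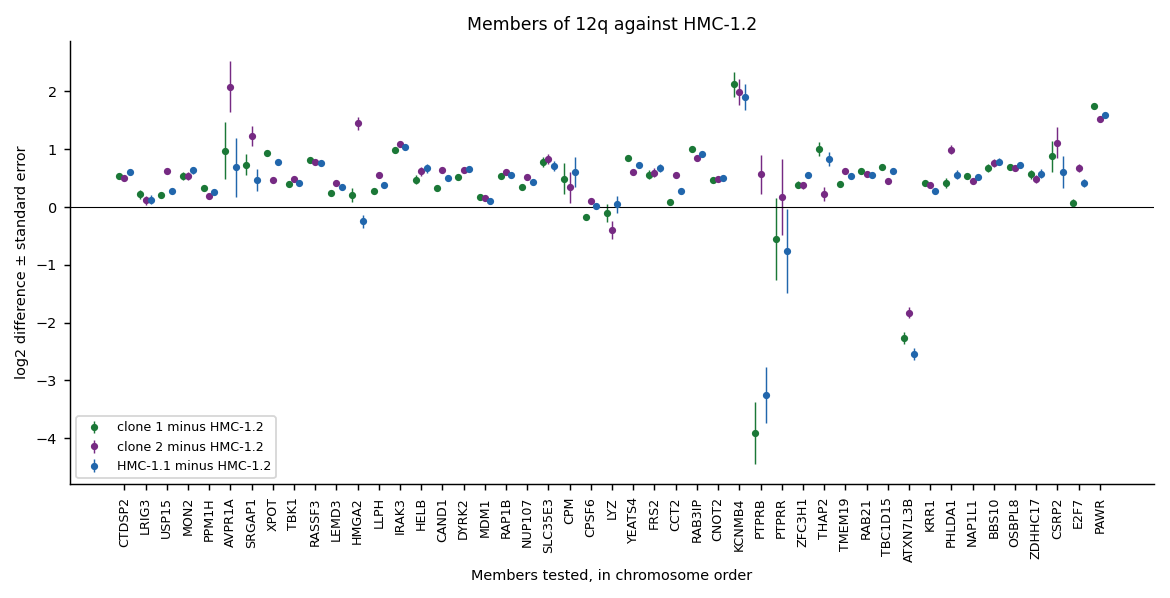
Log2 difference from HMC-1.2 (vertical axis) with its standard error (bars) for the 47 tested members in chromosome order (horizontal axis), in clone 1 (green), clone 2 (purple) and HMC-1.1 (blue). Most points lie between 0 and 1, ATXN7L3B lies below -1.8 in all 3 comparisons, and PTPRB lies below -3 in clone 1 and HMC-1.1 but above 0 in clone 2.

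Exceptions were defined as members more than 0.5 from the median of the members or with the opposite sign. Clone 1 had 9 of them, clone 2 had 9 and HMC-1.1 had 8. In all, 14 members were exceptions at least once, 33 never were, and 4 were in all 3 comparisons: LYZ, KCNMB4, ATXN7L3B and PAWR. Above the median lay RAB3IP and THAP2 in clone 1, AVPR1A, SRGAP1, HMGA2, IRAK3 and CSRP2 in clone 2, and none besides KCNMB4 and PAWR in HMC-1.1. PTPRB and PTPRR had the opposite sign in clone 1 and HMC-1.1, CPSF6 in clone 1 and HMGA2 in HMC-1.1, while CPSF6 lay below the median in HMC-1.1. CSRP2, a LIM domain protein of the cytoskeleton, was at 1.38, 1.40 and 1.27 FPKM in HMC-1.2, 4.48, 2.15 and 1.97 FPKM in clone 1 and 2.70, 3.35 and 2.89 FPKM in clone 2, and replicate 1 of clone 1 stood apart. Its difference between the clones was 0.23 ± 0.24 (adjusted p = 0.45, edgeR), and without that library it was 0.69 and was called.

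PAWR, the pro-apoptotic protein PAR-4 and the last gene of the interval, exceeded its neighbours. It was at 4.33, 4.29 and 6.69 FPKM in HMC-1.2, at 16.5, 15.3 and 18.1 FPKM in HMC-1.1, at 19.0, 18.1 and 18.1 FPKM in clone 1, and at 15.2, 16.4 and 15.7 FPKM in clone 2. The log2 differences were 1.74 ± 0.05, 1.53 ± 0.05 and 1.59 ± 0.05, about 3-fold. Its counts in HMC-1.2 were 925, 711 and 667, so the highest FPKM there did not come from the highest count. KCNMB4 had similar differences of 2.12 ± 0.22, 1.99 ± 0.22 and 1.91 ± 0.23 at far lower levels, and the ratio of its summed counts in clone 1 (210) to HMC-1.2 (42) was 4.37 after scaling, with an exact 95% interval of 3.12 to 6.24 that covers counting error only. For both genes all HMC-1.2 libraries lay below the others.

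ATXN7L3B went the opposite way. This gene encodes a small relative of a subunit of the SAGA deubiquitinase module. It was at 2.13, 2.15 and 1.91 FPKM in HMC-1.2, at 0.37, 0.31 and 0.41 FPKM in HMC-1.1, at 0.43, 0.43 and 0.48 FPKM in clone 1 and at 0.56, 0.58 and 0.63 FPKM in clone 2. Its differences were -2.27 ± 0.10, -1.83 ± 0.10 and -2.54 ± 0.11, and it was the only member for which all 9 other libraries lay below HMC-1.2. LYZ, the secreted lysozyme, was at 1.91 to 2.27 FPKM in HMC-1.2 and at 1.53 to 2.43 FPKM elsewhere, with differences of -0.10 ± 0.15, -0.41 ± 0.16 and 0.05 ± 0.15. CPSF6, a subunit of the cleavage factor that selects poly(A) sites, was well expressed and also did not follow the shift: it was at 69.2, 68.8 and 69.9 FPKM in HMC-1.2, 61.7, 63.1 and 64.9 FPKM in HMC-1.1, 55.6, 55.7 and 54.0 FPKM in clone 1 and 74.3, 73.0 and 74.0 FPKM in clone 2. By counts its differences were -0.17 ± 0.04, 0.11 ± 0.04 and 0.02 ± 0.04. The FPKM of HMC-1.1 lay below HMC-1.2 while the counts did not. RSEM divides FPKM by transcript lengths that it estimates in each library.

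**Figure D3:**
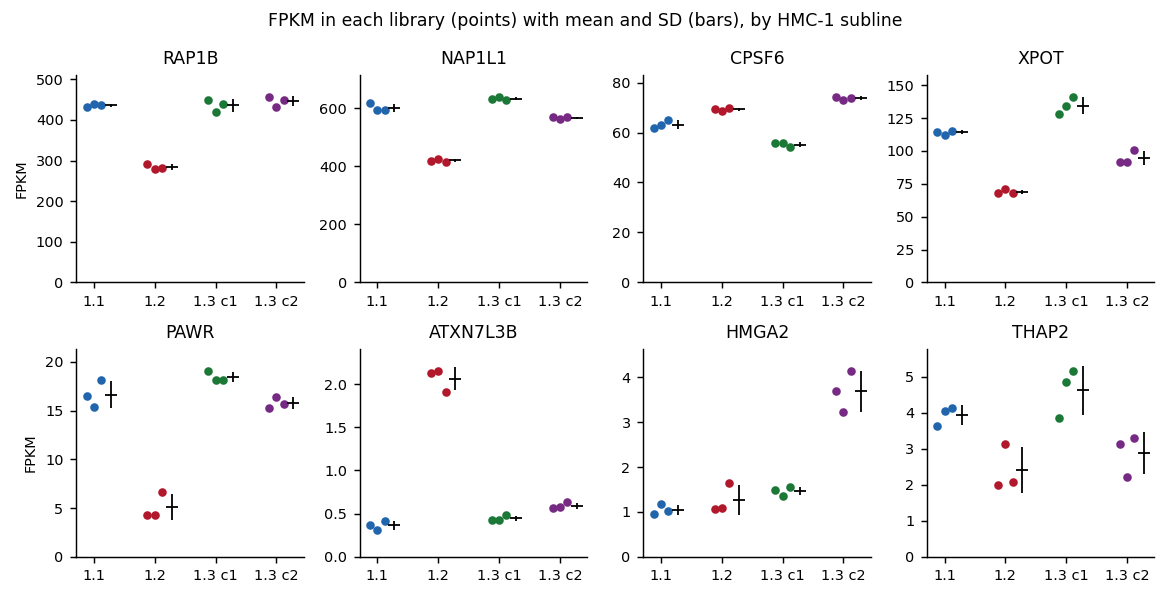
FPKM (vertical axes, from 0) of 8 members in each library (points) by subline (1.1, 1.2, and HMC-1.3 clone 1 and clone 2 as c1 and c2), with the mean and SD of 3 libraries (bars). HMC-1.2 is lowest for RAP1B, NAP1L1, XPOT and PAWR and highest for ATXN7L3B, and clone 2 is highest for HMGA2.

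On the left, AGAP2 and OS9, next outside TSPAN31, were near 0 in all 3 comparisons, but medians further out differed among the comparisons. On the right the shift was seen in the gene after PAWR but not in the median beyond. The median of the 170 tested genes between 50 Mb and CTDSP2 was 0.03 for clone 1, -0.04 for clone 2 and 0.03 for HMC-1.1. The 10 tested genes next to CTDSP2, from TSPAN31 at 57.74 Mb on, had medians of 0.54, 0.59 and 0.60, and CDK4, the cyclin D-dependent kinase, showed 0.96, 0.61 and 0.90. Of the 10, 9, 10 and 9 were above 0. METTL1 among them showed only -0.06, 0.19 and -0.06, and TSPAN31, the outermost, showed 0.86, 0.10 and 0.73. AGAP2 at 57.72 Mb, the next tested gene outward, showed -0.09, -0.07 and -0.06, and OS9 beyond it -0.05, -0.07 and -0.10. However, the 10 tested genes from MARS to AGAP2 had medians of 0.22, 0.00 and 0.14, and the 10 from STAT6 to ARHGAP9 had 0.37, -0.23 and 0.21. Medians further out were thus raised in clone 1 and HMC-1.1 but not in clone 2. Whether these genes share the shift of the members was not tested. The 10 before STAT6, from 56.64 to 57.09 Mb, had medians of 0.03, 0.00 and 0.01. On the right, PPP1R12A, which follows PAWR, showed 0.38, 0.43 and 0.49, and the 21 tested genes from PAWR to 90 Mb had medians of 0.00, -0.03 and 0.02. The 23 tested genes between the ends that are not members had medians of 0.28, 0.32 and 0.33, below those of the members, which were chosen on the shift. MDM2, the p53 ubiquitin ligase, showed 0.37, 0.66 and 0.59.

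**Figure D4:**
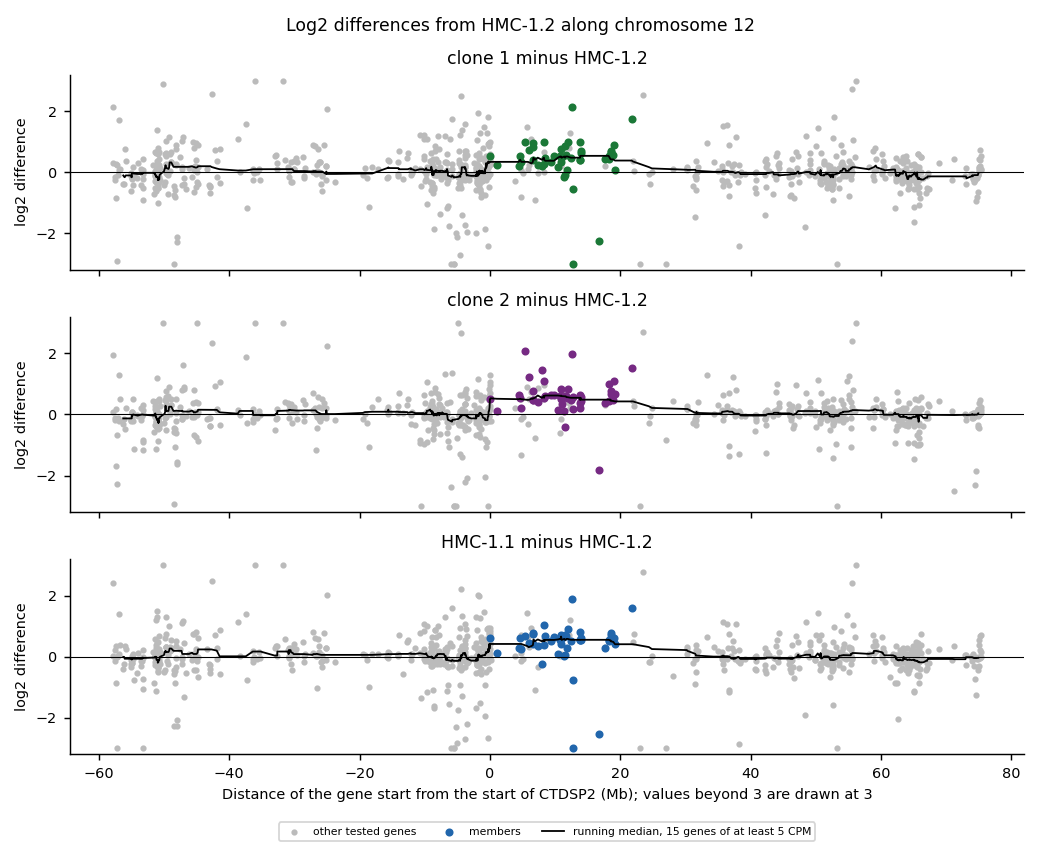
Log2 difference from HMC-1.2 (vertical axes) of tested genes of chromosome 12 against the distance of their start from that of CTDSP2 in Mb (horizontal axis), with members in colour, other genes in grey and a running median as a line. The line lies above 0.2 along the interval of 21.9 Mb in all 3 panels and falls toward 0 on both sides.

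Within the interval the members' median was similar from end to end, but the members were chosen on this shift, so this describes the choice. It was 0.54, 0.52 and 0.53 for the 10 tested members up to 65 Mb, 0.41, 0.60 and 0.53 for the 18 from 65 to 70 Mb, 0.44, 0.46 and 0.55 for the 10 from 70 to 75 Mb, and 0.56, 0.68 and 0.58 for the 9 from there to PAWR. Over all tested genes, members included, the medians were 0.337, 0.479 and 0.421 up to 65 Mb and 0.424, 0.599 and 0.538 from 65 to 70 Mb. They were 0.475, 0.452 and 0.553 from 70 to 75 Mb, and 0.549, 0.673 and 0.57 from there to PAWR. Genes up to 65 Mb that are not members had 0.246, 0.219 and 0.262.

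Whether the edited clones differed from each other was tested, since the choice of members did not use that contrast, though it used the libraries of both clones. Clone 2 was above clone 1 for 17 of 47 members by edgeR's quasi-likelihood test, adjusted after Benjamini and Hochberg over all 15944 genes (36.2%, background 24.7%), and below it for 8 (17.0%, background 25.5%). Of these, 4 rose and 1 fell by over 1.5-fold (background 4.25% and 8.38%). The median difference between the clones was 0.06, against -0.01 for all tested genes. The smaller called differences included LLPH (0.27 ± 0.04), TMEM19 (0.23 ± 0.05) and LEMD3 (0.17 ± 0.05) above clone 1, and TBC1D15 (-0.25 ± 0.03), YEATS4 (-0.24 ± 0.04) and RAB3IP (-0.16 ± 0.04) below it. Without replicate 3 of clone 2, 24 members were called in place of 25, and 20 without replicate 2 of clone 1. When tested against 1.5-fold with glmTreat, 2 were called.

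HMGA2, an architectural chromatin protein that is high in fetal tissue and in many tumours, rose most among members with over 100 counts per library. It had 419, 476 and 587 counts in clone 2 and 211, 181 and 193 in clone 1, beside 157, 124 and 160 in HMC-1.2 and 147, 148 and 144 in HMC-1.1. Clone 2 stood above all other libraries, and the difference from clone 1 was 1.24 ± 0.10 (adjusted p = 3.9e-08, edgeR). PTPRB, the receptor phosphatase of blood vessel endothelium, had 46, 41 and 65 counts in clone 2, 26, 29 and 28 in HMC-1.2, 3, 0 and 3 in clone 1 and 6, 3 and 1 in HMC-1.1. The ratio of the summed counts of clone 2 (152) to clone 1 (6) was 23.7 after scaling, with an exact 95% interval of 10.6 to 65.6, and the edgeR difference was 4.48 ± 0.51. This member passed the filter only through clone 2 and HMC-1.2. Its call is counted above, but its difference is given as a description. PTPRB was thus near 0 counts in clone 1 and HMC-1.1 and detected in clone 2 and HMC-1.2, at 0.39 FPKM or less. PTPRR, a phosphatase of MAP kinases, was at 0.39 FPKM or less in all libraries and its difference of 0.73 ± 0.68 was not called (adjusted p = 0.40, edgeR).

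The remaining larger differences between the clones fell in several roles. E2F7, a repressor of cell cycle genes, was at 7.38, 7.58 and 8.06 FPKM in clone 2 and 5.28, 4.71 and 5.97 FPKM in clone 1, without overlap, and differed by 0.60 ± 0.06 (adjusted p = 5.4e-07, edgeR). PHLDA1, a pleckstrin homology-like domain protein linked to cell death, was at 9.72, 10.1 and 9.94 FPKM in clone 2 and 7.33, 6.28 and 6.88 FPKM in clone 1, a difference of 0.57 ± 0.07 (adjusted p = 6.7e-06, edgeR). XPOT fell from 128, 134 and 141 FPKM in clone 1 to 91.3, 91.7 and 101 FPKM in clone 2, by 0.48 on the log2 scale (adjusted p = 2.2e-09, edgeR). CCT2 went the other way, from 247, 264 and 252 FPKM in clone 1 to 357, 339 and 337 FPKM in clone 2, a difference of 0.46 ± 0.03 (adjusted p = 2.7e-09, edgeR). For these 4 genes the libraries of the clones did not overlap. CCT2, USP15 and CAND1 of the ubiquitin and protein folding group rose in clone 2, the last 2 by 0.42 ± 0.03 and 0.30 ± 0.03 (adjusted p = 6.5e-09 and 1.1e-06, edgeR), and BBS10 showed 0.09 ± 0.06 (adjusted p = 0.25); USP15, CAND1 and BBS10 are named after their values were seen.

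Both AVPR1A and SRGAP1 were called at low levels, and neither call was stable. AVPR1A, the vasopressin V1a receptor, was at 0.13 to 0.14 FPKM in clone 2 and 0.06 to 0.07 FPKM in clone 1, a difference of 1.11 ± 0.39 (adjusted p = 0.025, edgeR) that was no longer called without replicate 2 or 3 of clone 1 or replicate 1 or 2 of clone 2, with values of 1.021 to 1.095. SRGAP1, a GTPase activating protein downstream of SLIT and ROBO, differed by 0.49 ± 0.16 (adjusted p = 0.019, edgeR). Without replicate 2 of clone 1 it was 0.33 and without replicate 3 of clone 2 it was 0.39, neither called, and on log2(FPKM + 0.1) it was 0.03.

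THAP2 and ZFC3H1 gave unequal results from opposite sides of a shared start region. Their RefSeq starts lie 453 bases apart head to head, and the windows printed above share 48 bases. THAP2, a zinc finger protein of the THAP family, was at 3.86, 4.85 and 5.15 FPKM in clone 1 and at 3.12, 2.20 and 3.30 FPKM in clone 2, and fell by 0.78 on the log2 scale from clone 1 to clone 2 (adjusted p = 2.1e-05, edgeR). ZFC3H1, a zinc finger protein that links poly(A) RNA to the nuclear exosome, was at 16.1, 17.1 and 19.0 FPKM in clone 1 and at 15.9, 14.4 and 15.2 FPKM in clone 2, with an edgeR difference by counts of -0.004 ± 0.057 (adjusted p = 0.96). Against HMC-1.2, THAP2 showed 1.00 ± 0.12 with clone 1, 0.22 ± 0.12 with clone 2 and 0.83 ± 0.12 with HMC-1.1, while ZFC3H1 showed 0.38 ± 0.06, 0.38 ± 0.06 and 0.55 ± 0.06. The difference of differences between the 2 genes was not tested.

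**Figure D5:**
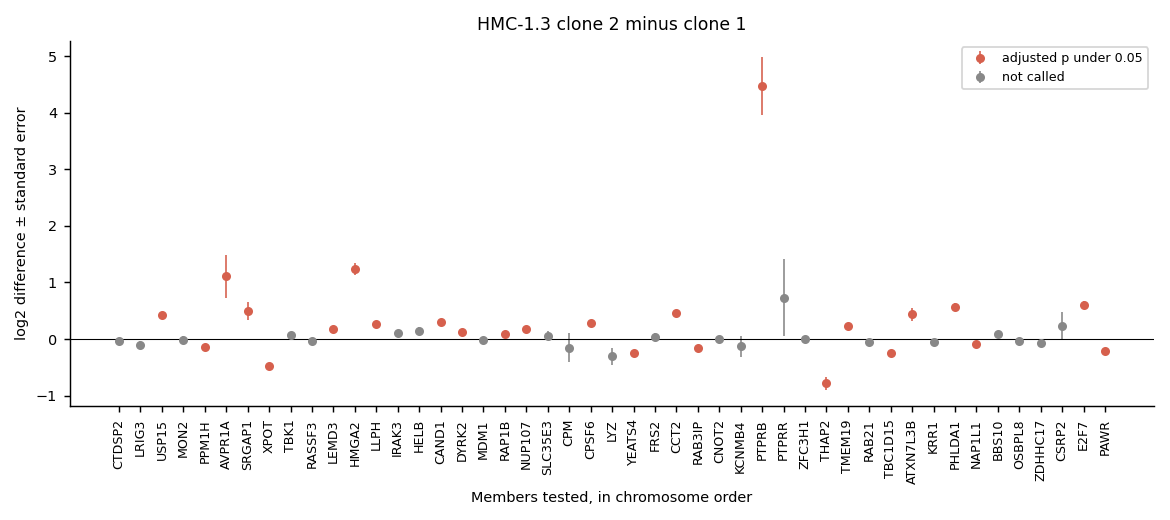
Log2 difference of clone 2 minus clone 1 (vertical axis) with its standard error (bars) for the 47 tested members in chromosome order (horizontal axis). Red points have an edgeR adjusted p under 0.05, 17 above 0 and 8 below, and PTPRB at 4.48 is the highest.

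The edited clones were also set against HMC-1.1, which carries the other single KIT variant. HMC-1.1 was not used to choose the members, but the libraries of the clones were, so these tests are not free of the choice. The median difference from HMC-1.1 was -0.03 in clone 1 and 0.04 in clone 2. In clone 1, 5 members were above HMC-1.1 by the same edgeR test (10.6%, background 8.87%) and 7 below (14.9%, background 9.83%). None of the 12 differed by over 1.5-fold (background 0.671% above and 0.339% below). Without replicate 1 of clone 1, 6 were called in place of 12. In clone 2, 12 were above HMC-1.1 (25.5%, background 18.5%) and 8 below (17.0%, background 17.5%), with 5 and 1 over 1.5-fold (background 3.04% and 5.15%). Without replicate 3 of clone 2, 16 were called in place of 20.

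HMGA2 was above HMC-1.1 in both clones, by 0.46 ± 0.12 in clone 1 (adjusted p = 0.011, edgeR) and 1.70 ± 0.11 in clone 2 (adjusted p = 1.9e-09). The first was no longer called without replicate 1 of clone 1, at 0.39, or on log2(FPKM + 1) and log2(FPKM + 0.1), at 0.27 and 0.45. ATXN7L3B was above HMC-1.1 in clone 2 by 0.72 ± 0.11 (adjusted p = 0.00011, edgeR), and in clone 1 it showed 0.28 ± 0.12 (adjusted p = 0.12). E2F7 fell by 0.34 in clone 1 and rose by 0.26 in clone 2 on the log2 scale (adjusted p = 0.0015 and 0.0029, edgeR), with HMC-1.1 between the clones at 6.72, 6.97 and 6.28 FPKM. The call for E2F7 in clone 2 was lost on log2(FPKM + 1) and log2(FPKM + 0.1), at 0.18 and 0.20. CCT2 was likewise below HMC-1.1 in clone 1, by -0.19 ± 0.03 (adjusted p = 0.00057, edgeR), and above it in clone 2, by 0.27 ± 0.03 (adjusted p = 2.9e-06). RAP1B was not called in either clone, with differences of -0.03 ± 0.03 and 0.06 ± 0.03 (adjusted p = 0.61 and 0.13, edgeR).

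The 11 members that were not tested had few or no counts. WIF1, a secreted WNT inhibitor, and LGR5, a receptor for R-spondins, had 0 counts in all 12 libraries, and SYT1, the synaptic vesicle calcium sensor, had at most 4. BEST3, TSPAN8, NAV3 and GRIP1 had at most 3 counts in any library, and GLIPR1, SLC16A7, MSRB3 and TBC1D30 at most 8, 10, 11 and 14. No shift was detectable for them at this depth.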

How the data were processed

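RNA from 12 wells, 3 of each subline, was analysed with groups taken from the labels. The authors deposited expected counts per gene, estimated with RSEM 1.3.0 from reads trimmed with Cutadapt 2.10 and aligned to hg38 with STAR 2.5.3, and 7.39% are not whole. They also deposited FPKM, in which the authors divided by transcript length and library size. Reads that match several genes are divided among them, so members with pseudogenes or overlapping genes are less certain. The study's methods name Gencode Release 39. Gencode 44 held 99.0% of the identifiers and gave positions. Both tables list the same samples, and no other column of sample values was present.

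Counts were rounded and tested with edgeR 4.0.16 (R 4.3.3) by the quasi-likelihood test, with TMM normalization, a model of the 4 groups, and 15944 genes kept by filterByExpr. A gene was called at a Benjamini-Hochberg adjusted p under 0.05, with the count over 1.5-fold beside it. Library totals were 29225900 to 43181402 counts. Pairs of replicates differed by more than sampling noise (chi-square per degree of freedom 2.92 to 8.2). Intervals cover counting error only. On simulated data for clone 2 against clone 1 with 15944 genes, 99 of 106 changes of 0.4 and 94 of 94 of 1 (log2) were called, with 8 false calls. The simulation gave every gene the same spread between wells (coefficient of variation 0.0442) and changed only genes above a floor of expression. Its rates therefore do not hold for members with low counts or a wider spread.

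The members and lists were chosen with earlier results of these data known. Genes named in full were the most expressed of each functional group, the 6 largest and 6 smallest in the mean of the clones against HMC-1.2, the 8 largest called differences between the clones, and both ends. Alternatives were DESeq2 1.42.0, other normalizations and filters, the compared groups alone, a replicate block, a term for libraries labelled as resent, glmTreat, limma 3.58.1 on log2(FPKM + 1) and log2(FPKM + 0.1), members of at least 10 CPM or without copies or overlaps, and leaving out each library. Figures were drawn with matplotlib 3.10.9.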

Additional observations from a re-analysis of the deposited data

Results flagged for a closer look

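Some members differed in level between clone 1 and clone 2, by edgeR's quasi-likelihood test of the difference itself at an adjusted p under 0.05. Among members named by the rule, clone 2 was above clone 1 by 4.48 (log2) for PTPRB, 1.24 for HMGA2, 1.11 for AVPR1A, 0.60 for E2F7, 0.57 for PHLDA1, 0.49 for SRGAP1, 0.46 for CCT2, 0.44 for ATXN7L3B, 0.28 for CPSF6 and 0.082 for RAP1B. It was below clone 1 for THAP2 (-0.78), XPOT (-0.48), PAWR (-0.21) and NAP1L1 (-0.093). Tested against 1.5-fold with glmTreat, only PTPRB and HMGA2 were called, and PTPRB had passed the filter only through clone 2 and HMC-1.2. The call for RAP1B was also lost with upper-quartile normalization (0.05), library size alone (0.05), the compared groups alone (0.08), both FPKM scales (0.03) and without replicate 2 or 3 of clone 1 or replicate 1 of clone 2 (0.06 to 0.08). That for NAP1L1 was lost without replicate 2 of clone 1 or of clone 2 (-0.075 and -0.077), those for PAWR, ATXN7L3B and SRGAP1 on both FPKM scales, and that for AVPR1A on both FPKM scales and with DESeq2. AVPR1A and SRGAP1 also lost their calls without single libraries, as given above.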

How the results depend on the processing

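The medians of the members against HMC-1.2 stayed above 0 under all alternatives run. For clone 1 (0.49) the median was 0.52 with upper-quartile normalization, 0.55 with library size alone, 0.45 with no filter (56 members), 0.37 and 0.47 on log2(FPKM + 1) and log2(FPKM + 0.1), 0.43 with DESeq2 (56 members), 0.52 over the 35 members of at least 10 CPM, 0.56 over the 13 members without a pseudogene or overlapping gene, and 0.43 to 0.52 leaving out each library. For clone 2 (0.57) it was 0.47 on log2(FPKM + 1), 0.62 over those 13 members and 0.55 to 0.59 leaving out each library. For HMC-1.1 (0.55) it was 0.58 with library size alone, 0.42 and 0.44 on the FPKM scales, 0.67 over the 13 members and 0.52 to 0.56 leaving out each library. The median of clone 2 against HMC-1.1 (0.04) was -0.011 over the 13 members. The cause of these differences was not tested, beyond the fewer or other members that some alternatives use.

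Calls between clone 2 and clone 1 (25) numbered 2 with glmTreat, 4 over the 13 members and 20 to 25 leaving out each library. Calls between clone 1 and HMC-1.1 (12) numbered 0 with glmTreat, 4 on each FPKM scale, 4 over the 13 members and 6 to 13 leaving out each library. Calls between clone 2 and HMC-1.1 (20) numbered 2 with glmTreat, 13 over the 35 members of at least 10 CPM, 4 over the 13 members and 16 to 21 leaving out each library. Among 1582 alternative values of named genes, 1473 kept their side of the threshold, 96 kept the direction but were no longer called, and 13 became called. Where the main or the alternative value was called, the direction was kept, and elsewhere it was not compared.

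With the replicate block, the medians were 0.52, 0.55 and 0.55 and the calls 25, 12 and 20. Correlations of same-numbered libraries were -0.04 to 0.10 over 18 pairs, and those of differently numbered libraries of different sublines were -0.11 to 0.07. The ranges overlap, and centring on the subline means lowers the second, so a weak pairing by number cannot be told from none.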
